A study of Mus musculus with 30 samples.

Results

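The step examined here ran from postnatal day 10 (P10) to P15 in the hippocampus of mice heterozygous for Nf1 (NF+/-), and it was read from 8 of the 30 arrays of the study: 4 at P10 and 4 at P15, taken by the age and genotype in their titles. C57BL/6 mice had been crossed with Nf1 heterozygous mice, the male pups were killed at the stated age, the liver served for genotyping, and every array carried total RNA from the pooled hippocampi of 2 pups. All 8 pools carried 1 intact Nf1 allele. Wild-type pups of the same cross, with 3 pools at P10 and 4 at P15, provided the comparison. Heterozygotes had 2 further pools at each of P18, P20 and P28 and 1 at P32. Which Nf1 allele was used, which litters the pups came from and when each pool was processed are unknown here, so the p-values below measure the spread between pools. Expression was measured on the Affymetrix MG-U74Av2 array, whose values are linear intensities. Changes below are differences in mean log2 intensity, P15 minus P10, with the standard error (SE) and the Benjamini-Hochberg adjusted p from a limma fit of all 30 arrays, and a gene was called higher or lower at an adjusted p below 0.05. Intensities are given pool by pool in a fixed order, 4 for P10 and then 4 for P15.

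Nf1 encodes neurofibromin, a protein that switches Ras off by speeding up its hydrolysis of GTP, and loss of 1 copy causes neurofibromatosis type 1 in people. In the rodent hippocampus the second and the third postnatal week are the period in which oligodendrocytes mature and wrap axons in myelin, neurons lose their growth cone proteins and form synapses, astrocytes mature, and the production of granule neurons in the dentate gyrus declines. In bulk tissue, a lower signal from fewer cells of a type and one from less RNA per cell cannot be told apart.

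The array holds 12422 probe sets other than controls, of which 7453 were bright enough to be tested (mean intensity over the 30 arrays of about 30.9 or more), and 10833 of the 12422 carry a single gene symbol. Median intensity ran from 52.9 to 59.1 over the 8 arrays. Log2 intensities of 2 pools correlated at 0.955 to 0.966 within P10, at 0.960 to 0.967 within P15 and at 0.941 to 0.959 between the ages. Of the defining neuronal genes, Neurod2, a transcription factor of excitatory forebrain neurons, had intensities of 332, 348, 319 and 387 at P10 and 365, 532, 429 and 388 at P15, and Snap25, a membrane fusion protein of synapses, had 2375, 2154, 2212 and 2437 at P10 and 2467, 2425, 2868 and 3111 at P15, both bright in every pool. Prox1, the transcription factor of dentate granule cells, was near the array median or below it, with 43.4, 48.6, 37.3 and 50.3 at P10 and 62.0, 42.0, 38.2 and 39.0 at P15, and neither it nor Neurod2 passed the test of the step (changes of -0.01, adjusted p = 0.99, and 0.29, adjusted p = 0.19). The astrocyte marker Slc1a3 and the erythroid marker Hbb-b1 have no probe set named for them alone and were not analysed here.

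Nf1 itself was read by 1 probe set, on a gene located at chr11:79339590-79581609 (GRCm38.p6), and was too dim to be tested with the rest. Its intensities were 2.15, 2.28, 4.65 and 11.5 at P10 and 15.04, 11.1, 7.88 and 3.60 at P15, so 3 of the 4 P15 pools lay inside the P10 range and 1 lay above it. The change was 1.04 on the log2 scale (SE 0.67, 95% interval -0.34 to 2.42, adjusted p = 0.36 with limma over all probe sets, exact permutation test over the 8 pools, two-sided p = 0.20, where 0.029 is the smallest value possible). With 32 added to every intensity before the logarithm the change was 0.16, and with 1 pool left out at a time it ran from 0.74 to 1.55. Wild-type pools lay between 1.43 and 9.41 at P10 and between 4.10 and 11.995 at P15, which overlaps the heterozygous values, and where the probe set lies relative to the disrupted part of the gene is not given, so it checks no label.

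Between P10 and P15, 1577 of the 7453 tested probe sets (21.2%) changed in heterozygotes at an adjusted p below 0.05, of which 754 (10.1%) were higher and 823 (11%) lower at P15. They cover 1326 genes. Most changes were moderate, with a median size of 0.54, and 107 rose and 72 fell by more than 2-fold. In 864 probe sets (11.6%) all 4 P15 pools lay above all 4 P10 pools, and in 998 (13.4%) all lay below. Of the 1577 called probe sets, 1325 had pools that did not overlap. Over 5694 genes, each read by its brightest probe set, 10.6% were called higher and 10.7% lower and the median change was -0.02, and the counts of the gene groups below can be read against those 2 shares.

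Among called genes whose pools did not overlap and whose brighter age had a mean log2 intensity of at least 7, the 15 that rose most are called top rising genes here and the 15 that fell most top falling genes. The 5 largest rises were in genes of myelin proteins. Mog, an oligodendrocyte surface protein of the outermost myelin layer (chr17:37010740-37023398), had intensities of 2.46, 8.28, 12.5 and 3.86 at P10 and 176, 175, 354 and 381 at P15 (log2 change 5.50, SE 0.40, adjusted p = 6.2e-10, 95% interval 4.67 to 6.34). Every P15 pool was at 175 or more and every P10 pool at 12.5 or less, so the size of the log2 change rests on dim P10 values. Mag, the adhesion protein that faces the axon, went from 34.5, 58.0, 30.1 and 57.1 at P10 to 628, 514, 821 and 1111 at P15 (log2 change 4.10, SE 0.25, adjusted p = 3.5e-11). Mbp, the basic protein that compacts the myelin membrane, was already bright at P10 and had values of 474, 602, 478 and 581 at P10 and 2809.6, 3389, 3723 and 3960.1 at P15 (log2 change 2.70, SE 0.11, adjusted p = 1.3e-14), which is a 6.49-fold rise. Its second probe set rose far less, by 0.38 (adjusted p = 0.011). On the first, the 4 pools of each age were close together and far from the other age. Mobp, another compact myelin protein, had 41.0, 51.3, 21.2 and 49.2 at P10 and 719, 756, 2172 and 1765 at P15 (log2 change 4.96, SE 0.38, adjusted p = 1.7e-09). Its other 3 probe sets rose by 3.64, 5.08 and 5.41.

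Mal and Cldn11 rose with a split inside P15. Mal, a protein that sorts lipids into myelin, had 20.3, 18.6, 29.1 and 35.7 at P10 and 214, 193, 751 and 883 at P15 (log2 change 4.02, SE 0.42, adjusted p = 3.1e-07). Cldn11, the tight junction protein of the myelin sheath, had 70.1, 78.8, 70.4 and 92.5 at P10 and 501, 452, 954 and 1001 at P15 (log2 change 3.14, SE 0.20, adjusted p = 3.9e-11). In both genes, as in Mog, Mag, Mbp and Mobp above, the third and the fourth P15 pools were brighter than the other 2. Of the 9 tested members of the list of myelin structural proteins, 6 rose, none fell and 3 did not pass, with a median change of 3.14. Of the 3 that did not pass, Cd9, a membrane tetraspanin, changed by -0.12 (adjusted p = 0.51) and Pmp22, a protein of peripheral myelin, by 0.04 (adjusted p = 0.88). The third, the tetraspanin Cd82, changed by 0.56 (adjusted p = 0.22), with a second probe set at -0.51. One other Mag probe set changed by -0.58 (adjusted p = 0.063), against the direction of the gene's brighter probe set.

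Of 13 tested enzymes, regulators and progenitor markers of the oligodendrocyte lineage 11 rose, 1 fell and 1 did not pass (median change 1.63). Gsn, the actin-severing protein gelsolin, had 49.9, 93.7, 76.5 and 60.2 at P10 and 351, 394, 818 and 840.1 at P15 (log2 change 3.03, SE 0.27, adjusted p = 3.0e-08). Ugt8a, which makes the myelin lipid galactosylceramide, went from 15.8, 21.0, 18.3 and 15.4 to 81.1, 91.8, 149 and 212 (log2 change 2.82, SE 0.24, adjusted p = 1.2e-08). Nkx6-2, a transcription factor of maturing oligodendrocytes, rose by 2.58 (adjusted p = 2.0e-05) from intensities under 10 at P10. The lysophosphatidic acid receptor Lpar1 had 13.4, 64.2, 46.4 and 25.5 at P10 and 115, 119, 130.0 and 175 at P15 (log2 change 2.06, SE 0.30, adjusted p = 2.2e-05), with the first P10 pool far below the others. Septin4, a cytoskeletal septin found along the myelin sheath, rose by 1.68 (adjusted p = 4.8e-06), with 101, 101, 97.3 and 87.3 at P10 and 257, 219, 362 and 449 at P15. The 1 member that fell was Pdgfra, the growth factor receptor that marks oligodendrocyte progenitors, and it is named here after its value was seen: 796, 863, 796 and 885 at P10 and 499, 424, 726 and 418 at P15 (log2 change -0.73, SE 0.18, adjusted p = 0.0062). Its second tested probe set changed by -0.37 (adjusted p = 0.42). Nkx2-2, a transcription factor of the lineage, did not pass (0.50, adjusted p = 0.12), although all 4 of its P15 pools lay above the P10 pools.

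Of 35 tested genes of growth cones and immature neurons 25 fell, none rose and 10 did not pass, with a median change of -0.51, against 10.7% lower among all genes. Dcx, the microtubule protein of migrating neurons (chrX:143855842-143933396), had 726, 607, 638 and 813 at P10 and 202, 241, 137 and 121 at P15 (log2 change -2.04, SE 0.18, adjusted p = 3.0e-08), a 4.1-fold fall. Cd24a, a surface glycoprotein of newborn neurons, had 1252, 1143, 1194 and 1065 at P10 and 416, 335, 275 and 202 at P15 (log2 change -1.97, SE 0.18, adjusted p = 4.4e-08). Dpysl3, a growth cone protein that acts on the cytoskeleton, had 399, 256, 339 and 396 at P10 and 132, 112, 81.7 and 83.0 at P15 (log2 change -1.77, SE 0.20, adjusted p = 1.0e-06). The transcription factor Sox11 of immature neurons had 426, 629, 786 and 554 at P10 and 219, 199.98, 308 and 158 at P15 (log2 change -1.45, SE 0.21, adjusted p = 2.3e-05). All 4 are top falling genes, a set chosen for pools that do not overlap, so the gap between their ages is no separate result. Among those that did not pass, the alpha tubulin Tuba1a changed by -0.20 (adjusted p = 0.14), the growth cone protein Basp1 by -0.16 (adjusted p = 0.33) and the actin-binding thymosin Tmsb4x by -0.11 (adjusted p = 0.24). Second probe sets of Tuba1a and Basp1 did pass, with changes of -0.54 (adjusted p = 2.3e-05) and -0.48 (adjusted p = 0.003). Stmn2, a microtubule regulator of growing axons, fell on both of its tested probe sets (changes of -0.64 and -0.74).

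Among the other top falling genes, St8sia2, the enzyme that adds polysialic acid to the neural cell adhesion molecule, had 182, 196, 209 and 211 at P10 and 95.5, 80.9, 68.1 and 61.9 at P15 (log2 change -1.40, SE 0.27, adjusted p = 6.0e-04). Chl1, an adhesion molecule of growing axons, had 449.7, 483, 524 and 479 at P10 and 263, 136, 233 and 151 at P15 (log2 change -1.36, SE 0.18, adjusted p = 7.3e-06). Rac3 had 213, 283, 279 and 247 at P10 and 82.7, 87.7, 47.7 and 34.9 at P15 (log2 change -2.11, SE 0.33, adjusted p = 6.3e-05). Klf7, a transcription factor of neurite outgrowth, fell by 1.30 (adjusted p = 1.6e-05), and Nrep, a small protein of regenerating neurons, had 2648, 2564, 2686 and 2809 at P10 and 1474, 1519.6, 751 and 913 at P15 (log2 change -1.27, SE 0.16, adjusted p = 4.8e-06). Lpl, the lipoprotein lipase, had 584, 586, 552 and 577 at P10 and 254, 247, 139 and 152 at P15 (log2 change -1.59, SE 0.22, adjusted p = 9.3e-06). Its second probe set changed by -1.65. S100a10, a partner of annexin, fell by 1.46 (adjusted p = 1.6e-07), but its second probe set changed by 0.07 (adjusted p = 0.88). The metalloprotease Adam28 had 163, 193, 173 and 222 at P10 and 64.2, 37.8, 16.5 and 90.6 at P15 (log2 change -2.09, SE 0.45, adjusted p = 0.0016). The general transcription factor Gtf2f2 had 156, 141, 198 and 182 at P10 and 30.4, 46.2, 63.7 and 91.0 at P15 (log2 change -1.65, SE 0.36, adjusted p = 0.002). Both varied among the P15 pools, and that neither overlapped between the ages was a condition of the choice of top falling genes. The top falling genes are completed by Dcx, Cd24a, Tnc, Dpysl3, Fabp7 and Sox11.

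Of 30 tested axon guidance ligands and receptors 1 rose, 5 fell and 24 did not pass (median -0.06), against 10.6% higher and 10.7% lower among all genes. Epha5, an ephrin receptor, had 233, 212, 195 and 293 at P10 and 129, 130.2, 98.8 and 109 at P15 (log2 change -0.99, SE 0.16, adjusted p = 8.2e-05). The semaphorin Sema4b fell by 0.75 (adjusted p = 0.019) and the netrin receptor Neo1 fell by 0.63 (adjusted p = 0.0068), whereas the semaphorin Sema5a, with 29.9, 26.3, 23.2 and 23.4 at P10 and 39.2, 43.5, 37.1 and 37.4 at P15, rose by 0.62 (adjusted p = 0.019). The myelin-associated inhibitor Rtn4 (-0.07, adjusted p = 0.67) and the ephrins Efnb3 (-0.06, adjusted p = 0.72) and Efna3 (0.09, adjusted p = 0.55) did not pass. In the neural extracellular matrix 2 of 15 rose, 4 fell and 9 did not pass (median -0.13). Tnc, tenascin C, had 185, 145, 116 and 127 at P10 and 43.0, 59.7, 36.9 and 27.2 at P15 (log2 change -1.82, SE 0.23, adjusted p = 4.1e-06). Ptprz1, a receptor phosphatase of glial progenitors, fell on 3 probe sets (changes of -0.75, -1.02 and -1.11). Agrn, the proteoglycan agrin, fell by 0.55 (adjusted p = 0.0036) and the syndecan Sdc4 rose by 0.49 (adjusted p = 0.026). The perineuronal proteoglycan Bcan (-0.01, adjusted p = 0.97), the receptor phosphatase Ptprs (-0.11, adjusted p = 0.43) and the glypican Gpc1 (-0.17, adjusted p = 0.48) did not pass. A call was lost on leaving out 1 pool for Sdc4 (any but the second P10 pool or the second or the third P15 pool, adjusted p up to 0.084), Sema4b (the third P10 pool or the fourth P15 pool, adjusted p up to 0.084) and Sema5a (the third or the fourth P10 pool or the second P15 pool, adjusted p up to 0.053). Other settings ended the call for Sdc4 (the Gapdh covariate, adjusted p = 0.063) and Sema5a (the compared groups alone, adjusted p = 0.0505).

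Of 30 tested cell cycle and DNA replication genes 7 fell, 1 rose and 22 did not pass (median -0.29), and 17 of the 47 on the array were too dim to test. Cks1b, a subunit of cyclin-dependent kinases, had 143, 120.4, 122 and 91.9 at P10 and 50.4, 60.2, 47.0 and 17.6 at P15 (log2 change -1.57, SE 0.29, adjusted p = 4.3e-04). Ccnd2, the D-type cyclin of neural progenitors, had 77.1, 90.8, 119.8 and 97.5 at P10 and 58.4, 28.7, 34.2 and 20.5 at P15 (log2 change -1.53, SE 0.24, adjusted p = 5.3e-05). Cdc20, an activator of the anaphase complex, had 139, 128, 108 and 122 at P10 and 69.4, 79.0, 53.3 and 47.5 at P15 (log2 change -1.02, SE 0.21, adjusted p = 1.0e-03). Rrm2, which makes deoxynucleotides, had 60.2, 57.5, 49.6 and 55.4 at P10 and 31.2, 37.3, 28.9 and 31.1 at P15 (log2 change -0.79, SE 0.21, adjusted p = 0.0077). In all 4 the P15 pools lay below the P10 pools. The replication clamp Pcna (-0.01, adjusted p = 0.99), the kinase Cdk4 (-0.10, adjusted p = 0.59) and the kinesin Kif22 (0.10, adjusted p = 0.64) did not pass.

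Of 22 tested genes of cholesterol and fatty acid synthesis 9 fell, none rose and 13 did not pass (median -0.16). Fdps, which makes farnesyl diphosphate, had 1159.8, 1112, 1221 and 1258 at P10 and 671, 783, 793 and 717 at P15 (log2 change -0.68, SE 0.09, adjusted p = 4.7e-06). The fatty acid synthase Fasn had 662, 694, 719.9 and 776 at P10 and 498, 510.2, 476 and 473 at P15 (log2 change -0.54, SE 0.11, adjusted p = 6.9e-04). Mvd, an enzyme of the mevalonate pathway, fell by 0.53 (adjusted p = 0.029), and Nsdhl, a late enzyme of sterol synthesis, fell on 3 probe sets (changes of -0.47, -0.44 and -0.38). For Fdps and Fasn the ages were far apart relative to the spread within them. Among those that did not pass, Hmgcs1, an early enzyme of the pathway, changed by -0.18 (adjusted p = 0.26), the desaturase Scd2 by 0.19 (adjusted p = 0.29) and the elongase Elovl5 by -0.11 (adjusted p = 0.53). A second Scd2 probe set was called higher (0.38, adjusted p = 0.027). Without 1 of the pools the call was lost for Mvd (the first or the fourth P10 pool or the third or the fourth P15 pool, adjusted p up to 0.091).

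The CCAAT box, a short promoter sequence that the factor NF-Y binds, was counted upstream of both of these groups. It was searched as CCAAT on both strands in the 250 bases before each start site in the RefSeq promoter table (GRCm38.p6), where 37.5% of 27025 genes hold it. All 7 called cell cycle genes in the table held it, as did 12 of the 18 not called (66.7%). These 7 are not the 7 that fell, since Ccnd2 has no entry and the 1 that rose is included. All 5 called genes of cholesterol and fatty acid synthesis in the table held it, as did 9 of the 11 not called (81.8%). A match is a description of the sequence and no test of binding. The stretches of 100 or 120 bases that end just before the start site are printed for the named members found in the table, 5′ to 3′ on the gene's strand, with matches on either strand in capitals. Cks1b lies at chr3:89418292-89418411 on the minus strand, Cdc20 at chr4:118437344-118437443 on the minus strand and Rrm2 at chr12:24708154-24708253 on the plus strand. Fasn lies at chr11:120824548-120824667 and Mvd at chr8:122443423-122443522, both on the minus strand.
Cks1b: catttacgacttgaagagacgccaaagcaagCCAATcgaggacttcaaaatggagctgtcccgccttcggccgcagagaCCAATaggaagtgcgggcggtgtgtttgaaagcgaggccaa
Cdc20: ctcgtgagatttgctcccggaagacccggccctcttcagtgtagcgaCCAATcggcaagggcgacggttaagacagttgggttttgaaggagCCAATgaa
Rrm2: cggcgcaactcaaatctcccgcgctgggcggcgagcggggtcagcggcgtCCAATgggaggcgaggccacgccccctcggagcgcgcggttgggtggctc
Fasn: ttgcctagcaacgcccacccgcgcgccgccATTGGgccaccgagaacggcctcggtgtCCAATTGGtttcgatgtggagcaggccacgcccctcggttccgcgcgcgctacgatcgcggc
Mvd: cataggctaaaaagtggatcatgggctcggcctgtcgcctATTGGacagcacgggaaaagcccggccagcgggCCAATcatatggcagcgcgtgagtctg
Counted from the start site, with -1 the base before it and each match placed by its first printed base, the boxes begin at -89 and -41 in Cks1b, at -53 and -8 in Cdc20 and at -50 in Rrm2. In Fasn they begin at -90, -62 and -59, the last 2 overlapping, and in Mvd at -60 and -27.

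Of 30 tested genes of synaptic vesicles and membrane fusion 12 were higher, 1 was lower and 17 did not pass (median 0.29). Vamp1, a vesicle fusion protein, had 20.8, 5.13, 15.7 and 8.51 at P10 and 63.7, 55.3, 45.6 and 98.9 at P15 (log2 change 2.53, SE 0.39, adjusted p = 5.8e-05). Nsf, the ATPase that recycles fusion complexes, had 864, 685, 787 and 772 at P10 and 1396, 1438, 1739.9 and 1212 at P15 (log2 change 0.89, SE 0.12, adjusted p = 1.3e-05). Syt2, a calcium sensor of fast release, had 91.0, 92.1, 65.5 and 75.5 at P10 and 97.4, 141, 132 and 202 at P15 (log2 change 0.79, SE 0.18, adjusted p = 0.0024). The ages did not overlap in these 3 genes. Sncb, beta-synuclein, had 522, 575, 483 and 508 at P10 and 1090.2, 963, 443 and 1049 at P15 (log2 change 0.68, SE 0.24, adjusted p = 0.04), and the third P15 pool lay below every P10 pool. The widely expressed calcium sensor Syt1 rose by 0.63 (adjusted p = 0.0054), with the fourth P10 pool inside the P15 range. Among those that did not pass, Snap25 changed by 0.24 (adjusted p = 0.17), the fusion factor Napa by 0.08 (adjusted p = 0.82) and the vesicular GABA transporter Slc32a1 by 0.00 (adjusted p = 0.99). Leaving out 1 pool ended the call for Sncb (any but the third P15 pool, adjusted p up to 0.13). The call was also lost under other settings for Sncb (the Gapdh covariate, the compared groups alone, no filter, no intensity trend or quantile normalization, adjusted p up to 0.095).

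Of 22 tested glutamate receptor and postsynaptic genes 4 rose, 1 fell and 17 did not pass (median 0.18). Camk2a, the alpha subunit of the calcium and calmodulin kinase of excitatory synapses, had 12.2, 8.67, 26.2 and 44.4 at P10 and 65.7, 29.1, 78.8 and 83.6 at P15 (log2 change 1.67, SE 0.52, adjusted p = 0.024), dim values that overlapped between the ages. The beta subunit Camk2b did not pass (0.01, adjusted p = 0.94). The scaffold Dlg1 had 288, 310.1, 313 and 297 at P10 and 479, 399, 377 and 564 at P15 (log2 change 0.57, SE 0.13, adjusted p = 0.0023). The membrane-shaping protein Baiap2 rose by 0.55 (adjusted p = 0.02). The kainate receptor subunit Grik1 fell by 0.72 (adjusted p = 0.029). For the AMPA receptor subunit Gria1 the probe sets disagreed: the brightest changed by -0.25 (adjusted p = 0.51) and another rose by 0.60 (adjusted p = 2.4e-04). Nrgn, a calmodulin-binding protein of dendrites, did not pass (0.41, adjusted p = 0.25). A call was lost on leaving out 1 pool for Baiap2 (the third P10 pool or the fourth P15 pool, adjusted p up to 0.091), Camk2a (any but the third or the fourth P10 pool or the second P15 pool, adjusted p up to 0.098) and Grik1 (any but the second P10 pool, adjusted p up to 0.12). Other settings ended the call for Camk2a (the Gapdh covariate, adjusted p = 0.062) and Grik1 (the Gapdh covariate or the compared groups alone, adjusted p up to 0.068).

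Inhibitory signalling held 3 rises and no fall among 12 tested genes (median 0.06). Gad1, which makes GABA, had 847, 781, 851 and 934 at P10 and 1438, 1318, 1667 and 1445 at P15 (log2 change 0.78, SE 0.10, adjusted p = 2.8e-06). The chloride importer Slc12a2 had 322, 461, 409 and 283 at P10 and 645, 464, 729 and 787 at P15 (log2 change 0.83, SE 0.19, adjusted p = 0.0026). The glycine receptor beta subunit Glrb rose by 0.45 (adjusted p = 0.0086). The GABA receptor genes Gabbr1 (-0.14, adjusted p = 0.32) and Gabrb1 (0.13, adjusted p = 0.37) and the scaffold Gphn (-0.05, adjusted p = 0.72) did not pass. Among 16 tested interneuron markers and neuropeptides 2 rose, 2 fell and 12 did not pass (median -0.08), against 10.6% higher and 10.7% lower among all genes. Pvalb, the calcium buffer of fast-spiking interneurons, had 369, 368, 396 and 356 at P10 and 582, 578, 769 and 815 at P15 (log2 change 0.87, SE 0.12, adjusted p = 8.1e-06), with every P15 pool above every P10 pool. The peptide Vip, with 16.1, 38.4, 4.68 and 34.5 at P10 and 38.4, 55.2, 43.9 and 54.3 at P15, was called higher (log2 change 1.42, SE 0.46, adjusted p = 0.028). Reln, the secreted protein reelin, fell by 0.40 (adjusted p = 0.036) and the peptide Gal fell by 0.37 (adjusted p = 0.028). The peptides Sst (0.23, adjusted p = 0.29), Npy (0.26, adjusted p = 0.065) and Cck (-0.17, adjusted p = 0.40) did not pass. Without 1 of the pools the call was lost for Gal (any but the second or the third P10 pool or the second P15 pool, adjusted p up to 0.10), Reln (the first or the fourth P10 pool or the third or the fourth P15 pool, adjusted p up to 0.13) and Vip (the first or the third P10 pool or the second or the fourth P15 pool, adjusted p up to 0.15). Changed settings ended it for Gal (the compared groups alone, adjusted p = 0.07), Reln (the compared groups alone or no filter, adjusted p up to 0.0514) and Vip (the Gapdh covariate or the compared groups alone, adjusted p up to 0.083).

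Of 21 tested voltage-gated channel genes 4 rose, 2 fell and 15 did not pass (median 0.11). The potassium channel beta subunit Kcnab2 had 384, 457, 445 and 408 at P10 and 903, 815, 929.6 and 1189 at P15 (log2 change 1.17, SE 0.15, adjusted p = 5.7e-06). Its relative Kcnab1 had 99.9, 132, 134 and 109.9 at P10 and 206, 179, 259.6 and 249.9 at P15 (log2 change 0.91, SE 0.15, adjusted p = 8.7e-05). Scn1a, a sodium channel of inhibitory neurons in particular, had 168, 174, 229 and 195 at P10 and 368, 329, 463 and 498 at P15 (log2 change 1.10, SE 0.14, adjusted p = 4.1e-06). Its other probe set rose by 1.11. In these 3 genes every P15 pool was above every P10 pool. The pacemaker channel Hcn3 fell by 0.58 (adjusted p = 2.5e-04), while Hcn2 (-0.05, adjusted p = 0.86), Kcnma1 (0.27, adjusted p = 0.21) and Kcnd2 (-0.20, adjusted p = 0.21) did not pass. Among sodium pump genes 3 of 7 tested rose, 1 fell and 3 did not pass (median -0.06): the beta subunits Atp1b1 (0.70, adjusted p = 1.4e-04) and Atp1b2 (0.70, adjusted p = 0.026) and the regulator Fxyd1 (0.65, adjusted p = 0.021) were higher and the beta subunit Atp1b3 was lower (-0.36, adjusted p = 0.013). The regulators Fxyd7 (-0.61, adjusted p = 0.059), Fxyd5 (-0.30, adjusted p = 0.47) and Fxyd2 (-0.06, adjusted p = 0.85) did not pass. Leaving out 1 pool ended the call for Atp1b2 (the first P10 pool or the second or the fourth P15 pool, adjusted p up to 0.085), Atp1b3 (the fourth P15 pool, adjusted p up to 0.057) and Fxyd1 (the first P10 pool or the third or the fourth P15 pool, adjusted p up to 0.11). The call was also lost under other settings for Fxyd1 (the compared groups alone, adjusted p = 0.077).

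**Figure D1:**
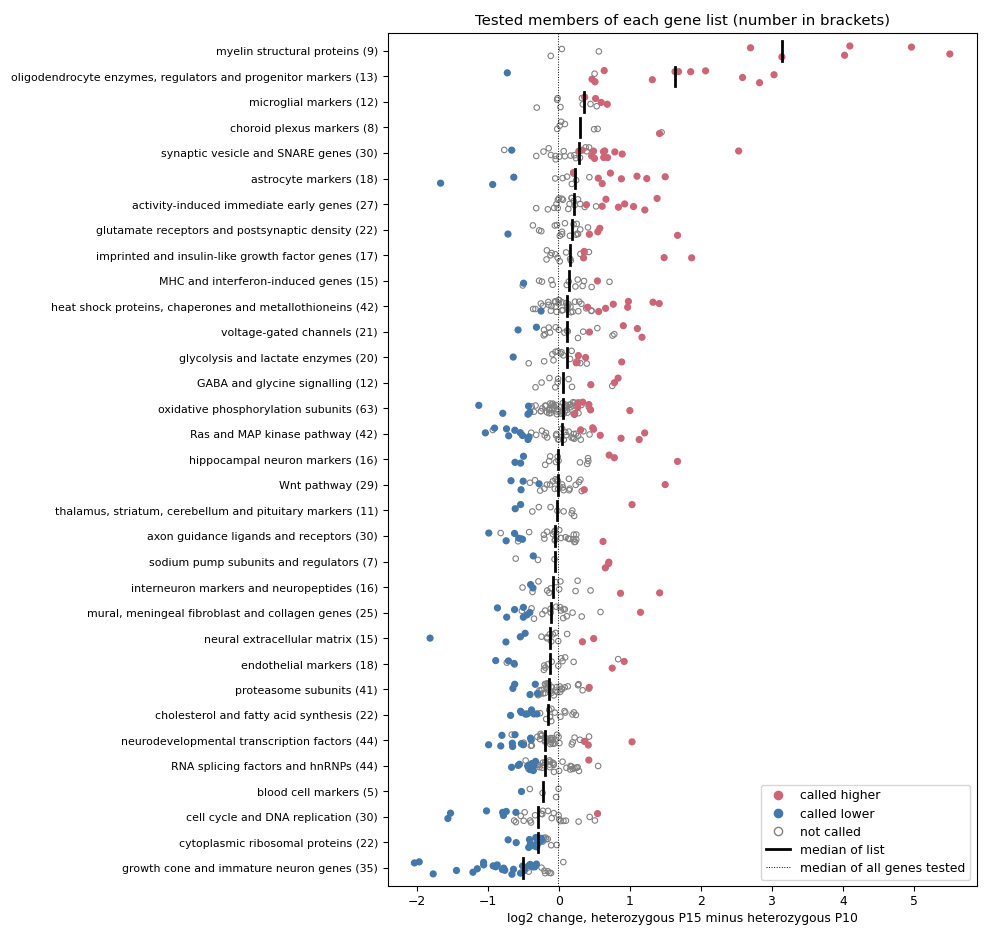
Log2 change from P10 to P15 in heterozygotes for every tested member of the 33 gene lists, each gene on its brightest probe set. Filled points passed limma at an adjusted p below 0.05, open points did not, black bars are list medians (from -0.51 to 3.14) and the dotted line is the median of all 5694 genes. Myelin and oligodendrocyte lists lie far to the right and the list of growth cone genes lies furthest to the left.

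Of 18 tested astrocyte markers 8 rose, 3 fell and 7 did not pass (median 0.22). Gjb6, connexin 30 of mature astrocytes, had 61.0, 61.5, 63.2 and 62.6 at P10 and 154, 158, 185 and 208 at P15 (log2 change 1.49, SE 0.16, adjusted p = 3.1e-07). Its second tested probe set rose by 1.69. Ntsr2, a neurotensin receptor of astrocytes, had 360.3, 296, 303 and 382 at P10 and 615, 689.8, 955 and 936 at P15 (log2 change 1.24, SE 0.14, adjusted p = 9.1e-07). Fabp7, the fatty acid binding protein of radial glia, had 2257, 2044, 2378 and 2159.7 at P10 and 1333, 907, 488 and 393 at P15 (log2 change -1.67, SE 0.26, adjusted p = 6.5e-05). Aqp4, the water channel of astrocyte endfeet, had 1078, 1181, 1238 and 1067 at P10 and 725, 522, 689 and 483 at P15 (log2 change -0.93, SE 0.15, adjusted p = 1.0e-04) and fell on its second probe set too (change of -0.95). S100b, a calcium-binding protein of astrocytes and oligodendrocytes, rose by 1.10 (adjusted p = 4.9e-07). Gfap, the intermediate filament protein, did not pass (0.05, adjusted p = 0.89), nor did the gap junction protein Gja1 (0.24, adjusted p = 0.15), the lipid carrier Apoe (0.11, adjusted p = 0.41) or the matrix protein Sparcl1 (0.18, adjusted p = 0.25). Among the top rising genes, Aldh1a1, which makes retinoic acid, had 173, 188, 189 and 166 at P10 and 423, 424, 516 and 662 at P15 (log2 change 1.48, SE 0.16, adjusted p = 8.0e-07). Mt1, a metal-binding metallothionein, had 834, 961, 900.3 and 767 at P10 and 1919, 2030.5, 2609.9 and 2718 at P15 (log2 change 1.41, SE 0.15, adjusted p = 3.1e-07), again with the third and the fourth P15 pools highest.

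Of 12 tested microglial markers 4 rose, none fell and 8 did not pass (median 0.35), and 9 more were too dim to test. C1qa, a chain of complement C1q, had 248, 298, 319.5 and 279 at P10 and 428, 463, 445 and 493 at P15 (log2 change 0.68, SE 0.19, adjusted p = 0.011). C1qb rose by 0.51 (adjusted p = 0.002), with a second probe set that went the other way and did not pass (-0.22, adjusted p = 0.55). The protease Ctss rose by 0.59 (adjusted p = 5.3e-04) and Csf1r, the receptor on which microglia depend, by 0.36 (adjusted p = 0.0085), although a second Csf1r probe set was called lower (-0.76, adjusted p = 0.019). C1qc (0.44, adjusted p = 0.084), the lysosomal gene Laptm5 (0.33, adjusted p = 0.074), the protease Lgmn (0.02, adjusted p = 0.94) and the fractalkine receptor Cx3cr1 (-0.31, adjusted p = 0.099) did not pass.

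Of 18 tested endothelial markers 2 rose, 3 fell and 13 did not pass (median -0.13), against 10.6% higher and 10.7% lower among all genes. Those that rose are transporters of the barrier: Slc2a1, the glucose carrier of the blood-brain barrier, had 94.2, 114, 104 and 86.9 at P10 and 195, 146, 176 and 245 at P15 (log2 change 0.92, SE 0.17, adjusted p = 3.2e-04). The efflux pump Abcb1a rose by 0.75 (adjusted p = 0.011). Eng, a receptor of growing vessels, had 521, 722, 736 and 491 at P10 and 354, 339.8, 320.3 and 298 at P15 (log2 change -0.89, SE 0.16, adjusted p = 3.3e-04). The junction genes Cldn5 (-0.71, adjusted p = 0.0018) and Cdh5 (-0.63, adjusted p = 0.032) were lower. Pecam1 (-0.01, adjusted p = 0.99) and the markers Ramp2 (0.21, adjusted p = 0.24), Itm2a (-0.16, adjusted p = 0.27) and Sox18 (-0.21, adjusted p = 0.43) did not pass, although a second Sox18 probe set fell by 0.71 (adjusted p = 0.0023). Among 25 tested mural, meningeal and collagen genes 1 rose, 7 fell and 17 did not pass (median -0.12): Col18a1 (-0.87, adjusted p = 0.021), the proteoglycan Bgn (-0.74, adjusted p = 0.0033) and the pericyte receptor Pdgfrb (-0.63, adjusted p = 0.011) were lower, and the mineralization inhibitor Mgp was higher (1.15, adjusted p = 0.001). Dcn (-0.12, adjusted p = 0.63), Sparc (0.32, adjusted p = 0.12) and Col1a2 (0.01, adjusted p = 0.96) did not pass. A call was lost on leaving out 1 pool for Cdh5 (any but the fourth P10 pool or the first or the third P15 pool, adjusted p up to 0.11) and Col18a1 (the second or the third P10 pool or the third or the fourth P15 pool, adjusted p up to 0.084). Other settings ended the call for Cdh5 (the Gapdh covariate, no filter or quantile normalization, adjusted p up to 0.064).

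Markers of the choroid plexus, which lies against the hippocampus, varied widely among the P10 pools. Ttr, the transthyretin of the choroid plexus, had 60.6, 2099.9, 1219 and 777 at P10 and 1436, 1152, 2697 and 1481 at P15 and did not pass (1.44, adjusted p = 0.24). The first P10 pool stood far below the rest. Of 8 tested markers 1 was called and 7 did not pass. Their mean log2 levels, set to 0 at the P10 mean, ran from -1.19 to 0.91 over the P10 pools and from 0.22 to 0.90 over the P15 pools. The one called was Kl, which had 16.7, 84.9, 64.3 and 35.0 at P10 and 111, 59.5, 196 and 120.2 at P15 (log2 change 1.40, SE 0.50, adjusted p = 0.048). Folr1 (0.54, adjusted p = 0.58), the ciliary factor Foxj1 (-0.03, adjusted p = 0.94) and Igfbp2 (0.01, adjusted p = 0.99) were not. In the same first P10 pool Fxyd1 was at 170.0 against 297 to 419 in the others and Lpar1 at 13.4 against 25.5 to 64.2, and the part of choroid plexus RNA in the calls of these 2 genes was not tested. Of 5 tested blood cell markers 1 was lower: Hba-a1, an alpha globin, had 2509, 2989.7, 2604 and 2124 at P10 and 2112, 1396, 1710.5 and 1897 at P15 (log2 change -0.53, SE 0.16, adjusted p = 0.021). Hbb-b2 (-0.01, adjusted p = 0.99), Alas2 (-0.41, adjusted p = 0.33) and Hba-ps3 (-0.04, adjusted p = 0.88) did not pass. Without 1 of the pools the call was lost for Hba-a1 (the second P10 pool or the second P15 pool, adjusted p up to 0.083) and Kl (any but the second or the third P10 pool or the second P15 pool, adjusted p up to 0.20). Changed settings ended it for Kl (array weights, 32 added to each intensity, no filter, no intensity trend or the title number as a replicate block, adjusted p up to 0.076).

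Among 11 tested markers of thalamus, striatum, cerebellum and pituitary, which a dissection could carry along, 1 rose, 2 fell and 8 did not pass (median -0.02). The transcription factor Zic2 rose (1.03, adjusted p = 8.8e-04), the cerebellar secreted protein Cbln1 fell (-0.62, adjusted p = 0.019) and Neurod1, on this and other lists, fell (-0.54, adjusted p = 0.031), and Zic1 (-0.12, adjusted p = 0.86), Tcf7l2 (0.06, adjusted p = 0.81) and Prkcd (0.19, adjusted p = 0.49) did not pass. Of the 16 tested markers of hippocampal neurons 3 rose, 3 fell and 10 did not pass (median -0.01). Wfs1, a marker of CA1 pyramidal cells, had 291, 392, 434 and 378 at P10 and 554, 613, 546 and 874 at P15 (log2 change 0.78, SE 0.24, adjusted p = 0.021). The mannosidase Man1a rose by 0.71 (adjusted p = 0.011), in addition to Camk2a. Neurod6, a transcription factor of young pyramidal cells, had 430.1, 375, 412 and 425 at P10 and 308, 257, 239.8 and 266 at P15 (log2 change -0.62, SE 0.21, adjusted p = 0.037). Neurod1, of developing granule cells, was lower as given above. Tbr1 (-0.13, adjusted p = 0.74) and Mfge8 (-0.20, adjusted p = 0.34) did not pass. Across the wider list of neurodevelopmental transcription factors 11 of 44 fell, 3 rose and 30 did not pass (median -0.19): Lmo1, a LIM-only cofactor, had 488, 438, 492 and 448 at P10 and 233, 277, 204 and 228 at P15 (log2 change -0.99, SE 0.13, adjusted p = 5.7e-06). The nuclear receptor Nr2f2 fell by 0.82 (adjusted p = 4.2e-04) and Id3, an inhibitor of basic helix-loop-helix factors, fell by 0.81 (adjusted p = 4.8e-05). For Nfix the brightest probe set changed by -0.38 (adjusted p = 0.082) while a second one rose by 0.94 (adjusted p = 0.04). Mef2d (0.22, adjusted p = 0.10) and Lmo4 (0.18, adjusted p = 0.47) did not pass. Leaving out 1 pool ended the call for Cbln1 (the second or the fourth P10 pool or the third P15 pool, adjusted p up to 0.077), Man1a (the fourth P15 pool, adjusted p up to 0.053), Neurod1 (the second or the fourth P10 pool or the first or the third P15 pool, adjusted p up to 0.11), Neurod6 (any but the second P10 pool or the first P15 pool, adjusted p up to 0.092) and Wfs1 (the first P10 pool or the fourth P15 pool, adjusted p up to 0.091). The call was also lost under other settings for Neurod1 (no filter or quantile normalization, adjusted p up to 0.0526) and Neurod6 (the Gapdh covariate, no filter or no intensity trend, adjusted p up to 0.056).

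Immediate early genes are transcribed within minutes of neuronal firing. Of 27 tested 8 rose, none fell and 19 did not pass (median 0.21), against 10.6% higher among all genes. Egr1, a zinc finger factor, had 163, 187, 193 and 164 at P10 and 351, 354, 339 and 652 at P15 (log2 change 1.21, SE 0.17, adjusted p = 1.2e-05), with the fourth P15 pool far above the other 3. Fos had 64.8, 61.7, 52.9 and 70.4 at P10 and 99.7, 80.8, 180.1 and 188 at P15 (log2 change 1.05, SE 0.22, adjusted p = 0.0012). Nr4a1, an orphan nuclear receptor, had 78.3, 99.2, 64.2 and 105 at P10 and 130.0, 118, 184 and 241 at P15 (log2 change 0.92, SE 0.21, adjusted p = 0.0024). Ptgs2, the inducible cyclooxygenase, had 27.1, 7.89, 19.8 and 10.8 at P10 and 32.3, 31.0, 52.2 and 40.3 at P15 (log2 change 1.38, SE 0.35, adjusted p = 0.0066). In Fos and Nr4a1 the third and the fourth P15 pools were again the highest. The growth factor Bdnf (0.36, adjusted p = 0.14), the kinase Plk2 (-0.02, adjusted p = 0.90) and the factor Jund (-0.07, adjusted p = 0.67) did not pass. Rasd1, a Ras-like protein induced by glucocorticoids and calcium entry, was a top rising gene, with 95.4, 107, 87.0 and 98.8 at P10 and 282, 272, 250.5 and 413 at P15 (log2 change 1.63, SE 0.19, adjusted p = 2.0e-06). The labels do not say how long pups were handled before death.

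TGACG, the core of the cAMP response element, was searched in the same way. It stands in 6 of the 7 called genes of this group with an entry in the RefSeq promoters, on either strand within 250 bases of at least 1 listed start site, and in 9 of the 16 not called (56.2%), against 19.8% of 27025 genes. The last 150 bases before the start are printed for Fos (chr12:85473740-85473889, plus strand) and Nr4a1 (chr15:101266696-101266845, plus strand), and the last 100 for Fosb (chr7:19310046-19310145, minus strand). Fosb, a member of the Fos family, rose by 0.61 (adjusted p = 0.0034) and was chosen after its values were seen. Capitals mark TGACG or its reverse complement, shown because factors that bind this element are known to switch these genes on.
Fos: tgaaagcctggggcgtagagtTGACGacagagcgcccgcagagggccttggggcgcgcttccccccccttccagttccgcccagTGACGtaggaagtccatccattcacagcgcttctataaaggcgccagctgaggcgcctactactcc
Nr4a1: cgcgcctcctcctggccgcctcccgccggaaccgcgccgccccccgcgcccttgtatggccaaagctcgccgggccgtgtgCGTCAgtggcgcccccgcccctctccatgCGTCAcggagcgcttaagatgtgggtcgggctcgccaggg
Fosb: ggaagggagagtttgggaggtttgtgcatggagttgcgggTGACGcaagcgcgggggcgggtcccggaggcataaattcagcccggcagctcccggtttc
The matches begin at -129 and -66 in Fos, at -69 and -40 in Nr4a1, both on the opposite strand, and at -60 in Fosb. Matches in these letters say nothing on whether a factor was bound.

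The Ras and MAP kinase pathway, in which neurofibromin acts, had calls in both directions: 7 of 42 tested genes rose, 9 fell and 26 did not pass (median 0.04). Rasgrf1, a calcium-dependent activator of Ras in neurons, had 228, 246, 262 and 219 at P10 and 526, 369, 574 and 815 at P15 (log2 change 1.21, SE 0.18, adjusted p = 4.8e-05). Rras, a Ras relative of vessel and other cells, rose by 1.13 (adjusted p = 8.9e-04), whereas Rasgrp2, an activator of Rap proteins, had 115, 125, 138 and 151 at P10 and 81.0, 75.2, 42.3 and 65.4 at P15 (log2 change -1.04, SE 0.22, adjusted p = 0.0015). The kinase Map3k1 fell by 0.91 (adjusted p = 0.0014). The phosphatase Dusp6, itself a target of the pathway, did not pass (0.14, adjusted p = 0.44), nor did Ralgds (-0.17, adjusted p = 0.35) or Rap1gap (0.21, adjusted p = 0.54). In the Wnt pathway 2 of 29 rose, 4 fell and 23 did not pass (median -0.02), against 10.6% higher and 10.7% lower among all genes. The ligand Wnt3 was called higher (log2 change 1.495, SE 0.37, adjusted p = 0.0051) on dim values of 42.6, 21.4, 7.79 and 11.03 at P10 and 35.7, 46.3, 61.9 and 48.5 at P15 that overlapped, and Csnk1e (-0.68, adjusted p = 0.0011), Apc (-0.54, adjusted p = 0.028) and the receptor Fzd3 (-0.51, adjusted p = 0.0066) were lower. Csnk1a1 (0.15, adjusted p = 0.23), Csnk1d (0.04, adjusted p = 0.85) and Dkk3 (0.30, adjusted p = 0.16) did not pass. A call was lost on leaving out 1 pool for Apc (the fourth P10 pool or the third P15 pool, adjusted p up to 0.13).

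Of 22 tested ribosomal protein genes 13 fell, none rose and 9 did not pass (median -0.30). Rps19 had 778, 772, 1004 and 909 at P10 and 593, 589, 564 and 380.1 at P15 (log2 change -0.72, SE 0.15, adjusted p = 0.0015). Rpl10a fell by 0.60 (adjusted p = 9.2e-05), Rpl7a fell by 0.43 (adjusted p = 6.4e-05) and Rplp0 fell by 0.42 (adjusted p = 0.0015), and in each of these 4 the ages did not overlap. Rpl41 (-0.31, adjusted p = 0.054), Rps28 (-0.18, adjusted p = 0.20) and Rps24 (-0.03, adjusted p = 0.84) did not pass on their brightest probe sets, but a second Rps28 probe set fell by 0.42 (adjusted p = 8.3e-05). Of 44 tested splicing factors 11 fell, 1 rose and 32 did not pass (median -0.19). The falls include Hnrnpd (-0.67, adjusted p = 1.0e-04), Snrpg (-0.58, adjusted p = 3.3e-04), Snrpd3 (-0.56, adjusted p = 0.021) and Hnrnpm (-0.44, adjusted p = 0.02), while Snrpb (-0.13, adjusted p = 0.40), U2af2 (-0.07, adjusted p = 0.50) and Hnrnpdl (-0.29, adjusted p = 0.073) did not pass. Of 41 tested proteasome subunits 5 fell, 1 rose and 35 did not pass (median -0.15), against 10.7% lower and 10.6% higher among all genes. Psme1 fell by 0.62 (adjusted p = 4.9e-04), Psmd12 fell by 0.65 (adjusted p = 0.04) and Psmb3 fell by 0.41 (adjusted p = 0.0019), and Psmb1 rose by 0.42 (adjusted p = 0.0034). Psma3 (-0.29, adjusted p = 0.053), Psma6 (-0.15, adjusted p = 0.38) and Psmb4 (0.04, adjusted p = 0.78) did not pass. Without 1 of the pools the call was lost for Hnrnpm (the first P10 pool or the second P15 pool, adjusted p up to 0.086), Psmd12 (any but the first P15 pool, adjusted p up to 0.091) and Snrpd3 (the fourth P10 pool or the fourth P15 pool, adjusted p up to 0.085). Changed settings ended it for Psmd12 (the Gapdh covariate, no filter or no intensity trend, adjusted p up to 0.085).

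Of 63 tested subunits of oxidative phosphorylation 7 rose, 5 fell and 51 did not pass (median 0.05), against 10.6% higher and 10.7% lower among all genes. The group as a whole was thus not called more often than other genes. Atp5pb, a stalk subunit of the ATP synthase, had 118, 120.5, 113 and 114 at P10 and 51.9, 80.7, 30.4 and 62.2 at P15 (log2 change -1.13, SE 0.25, adjusted p = 0.0021). Uqcrb of complex III fell by 0.79 (adjusted p = 6.9e-04), Cox6a2, a cytochrome oxidase subunit, had 77.1, 81.3, 108 and 75.1 at P10 and 150.1, 138, 219 and 178 at P15 (log2 change 0.997, SE 0.20, adjusted p = 9.0e-04) and Sdha of complex II rose by 0.44 (adjusted p = 0.0077). The subunits Ndufb5 (-0.10, adjusted p = 0.50), Cox6a1 (0.11, adjusted p = 0.41) and Atp5md (0.02, adjusted p = 0.92) did not pass. Of 20 tested glycolysis and lactate genes 4 rose, 1 fell and 15 did not pass (median 0.11): Eno2, the neuronal enolase, had 937, 959, 914 and 892 at P10 and 1693, 1418, 1637 and 2157 at P15 (log2 change 0.88, SE 0.11, adjusted p = 4.9e-06). Pdha1 rose by 0.37 (adjusted p = 0.0046) and Tpi1 by 0.27 (adjusted p = 0.0093), and Pfkp fell by 0.65 (adjusted p = 0.0046). Aldoa (0.16, adjusted p = 0.26), Pkm (0.25, adjusted p = 0.082) and Ldha (-0.08, adjusted p = 0.53) did not pass on their brightest probe sets, but a second probe set of Aldoa and of Pkm rose by 0.43 and 0.64.

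Among 42 tested chaperones and metallothioneins 8 rose, 1 fell and 33 did not pass (median 0.12). Beside Mt1, the metallothionein Mt2 had 1281, 1168, 1186 and 1284 at P10 and 2074, 2606, 2559.7 and 2471 at P15 (log2 change 0.98, SE 0.10, adjusted p = 9.8e-08). The inducible heat shock protein Hspa1b had 43.9, 40.4, 41.2 and 46.6 at P10 and 97.3, 80.3, 138 and 124 at P15 (log2 change 1.32, SE 0.15, adjusted p = 1.3e-06). The endoplasmic reticulum chaperone Dnajb9 had 168, 157, 137 and 141 at P10 and 372, 142, 326 and 431 at P15 (log2 change 0.97, SE 0.24, adjusted p = 0.0049). The second P15 pool of Dnajb9 lay inside its P10 range, and its other probe set rose by 0.86 (adjusted p = 5.5e-04). Hspa8 (0.05, adjusted p = 0.78), Dnaja1 (-0.05, adjusted p = 0.80) and Hsp90aa1 (0.27, adjusted p = 0.17) did not pass.

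Antigen presentation and interferon genes gave 1 rise, the membrane protein Ifitm3 (0.54, adjusted p = 0.0058), and 1 fall, the peptide transporter Tap1 (-0.50, adjusted p = 0.023), among 15 tested, with 13 more too dim to test, and B2m (0.26, adjusted p = 0.33), H2-K1 (0.35, adjusted p = 0.055) and Ifi27 (0.23, adjusted p = 0.37) did not pass. Of 17 tested imprinted and insulin-like growth factor genes 4 rose, none fell and 13 did not pass (median 0.16). Impact, an imprinted gene whose product inhibits the translational control kinase Gcn2, had 61.3, 34.9, 66.5 and 44.4 at P10 and 192, 92.9, 204 and 309 at P15 (log2 change 1.87, SE 0.31, adjusted p = 1.2e-04). Igfbp6, which binds the growth factor Igf2, had 16.4, 40.7, 49.8 and 17.6 at P10 and 71.3, 33.2, 98.4 and 152 at P15 (log2 change 1.48, SE 0.42, adjusted p = 0.014). Peg3 (0.35, adjusted p = 0.02) and Igf1 (0.34, adjusted p = 0.038) rose, but the other 2 Peg3 probe sets did not pass, with changes of -0.31 (adjusted p = 0.28) and 0.01 (adjusted p = 0.97). Values of Igfbp6 overlapped between the ages, and its lowest P10 pool was the first. Igf2 (0.10, adjusted p = 0.76), Gnas (-0.10, adjusted p = 0.41) and Ndn (-0.02, adjusted p = 0.93) did not pass, although a second Ndn probe set fell by 0.43 (adjusted p = 0.03). Leaving out 1 pool ended the call for Igf1 (any but the first P10 pool or the first or the third P15 pool, adjusted p up to 0.15), Igfbp6 (the first or the fourth P10 pool or the fourth P15 pool, adjusted p up to 0.072), Peg3 (the third P10 pool or the third P15 pool, adjusted p up to 0.079) and Tap1 (the third P10 pool or the first or the fourth P15 pool, adjusted p up to 0.06). The call was also lost under other settings for Igf1 (the compared groups alone or no filter, adjusted p up to 0.074) and Tap1 (the compared groups alone or quantile normalization, adjusted p up to 0.0541). Itih3, a heavy chain of a hyaluronan-binding inhibitor, completes the top rising genes, with 77.2, 42.2, 30.8 and 70.7 at P10 and 120.4, 101, 184 and 165 at P15 (log2 change 1.42, SE 0.26, adjusted p = 2.9e-04).

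Wild-type pups provided the same step on different arrays, so the 2 steps share no sample. There 429 of the 7453 probe sets (5.76%) were called, 239 higher and 190 lower. The count was 228, 242 or 250 without 1 of the 3 P10 pools, 298 to 378 without 1 of the 4 P15 pools, and 724 with array weights. The heterozygous and wild-type changes correlated across the 7453 probe sets at Pearson's r = 0.68 and Spearman's rho = 0.60, values that describe genes, which are not independent replicates. Of the 1577 probe sets called in heterozygotes, 1475 (93.5%) had the same sign in wild type, against 72.8% of all tested, and 349 were called in both, which is 22.1% of the heterozygous and 81.4% of the wild-type calls in the fit of all arrays. All 349 had the same sign. The wild-type step rests on 7 arrays and had a median SE of 0.16, against 0.15 in heterozygotes. The difference between the steps was tested itself, and no probe set (0%) passed at an adjusted p below 0.05 with limma, the smallest adjusted p being 0.12, while 505 had an unadjusted p below 0.05.

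**Figure D2:**
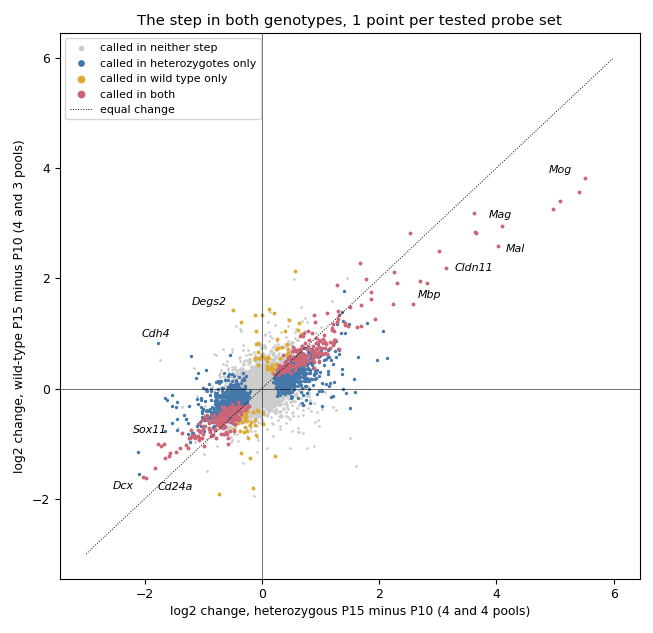
Log2 change from P10 to P15 in wild type against that in heterozygotes, 1 point for each of the 7453 tested probe sets, coloured by the step in which limma called it. The dotted line marks equal change. Points called in both (349) all have the same sign in both, and Mog, Mag and Mal lie below the line.

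In wild type 14 of the 15 top rising genes were called higher too. Of the 15 top falling genes 10 were called lower there. The change was larger in heterozygotes in all 15 rising and all 15 falling genes. Both sets were picked for a large heterozygous change, which by itself tilts this comparison that way. The same holds for Mog, Mag and Mbp below. For Mog the changes were 5.50 in heterozygotes and 3.83 in wild type (difference 1.68, 95% interval 0.46 to 2.90, unadjusted p = 0.0092, adjusted p = 0.56). For Mag they were 4.10 and 2.95 (difference 1.14, adjusted p = 0.50). Mbp had the fourth smallest p of all genes for the difference, with 2.70 and 1.95 (difference 0.75, 95% interval 0.41 to 1.09, unadjusted p = 1.3e-04, adjusted p = 0.25). Of the 9 tested genes of the myelin list 6 had an unadjusted p below 0.05 for the difference, against 505 of all 7453 probe sets. None passed after adjustment over all probe sets. These genes were read from the same pools, so the 6 are not independent. The median change of the list was 3.14 in heterozygotes and 2.19 in wild type, that of the other oligodendrocyte genes 1.63 and 1.05, and that of the growth cone genes -0.51 and -0.37. For synaptic vesicle genes the medians were 0.29 and 0.24 and for immediate early genes 0.21 and 0.26.

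Besides Mbp, the genes with the smallest p for the difference had estimates of opposite sign in the 2 genotypes. Degs2, a sphingolipid desaturase, changed by -0.49 in heterozygotes, where it did not pass (adjusted p = 0.18), and changed by 1.43 in wild type (adjusted p = 0.0026, difference -1.92, unadjusted p = 3.2e-05, adjusted p = 0.12). Its heterozygous intensities were 101, 108, 90.5 and 60.8 at P10 and 58.6, 63.9, 75.2 and 54.5 at P15. Cdh4, retinal cadherin, had 78.7, 76.5, 108 and 96.4 at P10 and 37.8, 14.96, 24.6 and 33.5 at P15 (log2 change -1.77, SE 0.35, adjusted p = 7.1e-04), while in wild type it changed by 0.82 (difference -2.59, adjusted p = 0.12). Cdh10, another cadherin, fell with 109.6, 88.5, 108 and 105 at P10 and 67.1, 61.3, 62.8 and 54.6 at P15 (log2 change -0.74, SE 0.12, adjusted p = 1.1e-04) and changed by 0.13 in wild type (difference -0.87, adjusted p = 0.14). Ndufa3, of complex I, fell by 0.54 (adjusted p = 0.04) and changed by 0.60 in wild type (difference -1.14, adjusted p = 0.30). None of these differences passed the adjustment over all probe sets. A call was lost on leaving out 1 pool for Ndufa3 (any but the second or the third P15 pool, adjusted p up to 0.12). Other settings ended the call for Ndufa3 (no filter or quantile normalization, adjusted p up to 0.065).

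Pools of P15 were not alike, and they differed along the step itself. Titles carry a number, 1 or 2, and no label explains it. At each age 2 heterozygous pools carry number 1 (the first and the second in order) and 2 carry number 2 (the third and the fourth). At P15 both number 2 pools lay above both number 1 pools in 14 of the 15 top rising genes and below both in 10 of the 15 top falling genes. Over the 754 probe sets called higher the number 2 pools were above in 39.4% and below in 5.04%, and over the 823 called lower they were below in 34.8% and above in 5.95%, against 16.5% above and 16.9% below among all tested. At P10 the number 2 pools lay against the step more often than with it: they were above in 13.4% and below in 17.9% of the probe sets called higher, and above in 23.7% and below in 13.9% of those called lower, against 16.2% and 16.9% among all tested. Genes that move together are not independent, and these shares describe 4 pools with no test.

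In wild type at P15 the title numbers lay the other way round for most top rising genes and in no clear order for the top falling ones. Both number 2 pools were below both number 1 pools in 13 of the 15 top rising genes, although over all 754 probe sets called higher the wild-type split was even, with 29% above and 30.6% below. Of the 15 top falling genes 5 lay above and 3 below, and of the 823 probe sets called lower 25.4% lay above and 28.9% below. These wild-type shares stand against 26.4% above and 25.2% below among all 7453 tested probe sets at wild-type P15. At heterozygous P15 the shares over all tested were 16.5% and 16.9%. The wild-type P15 pools thus separated by title number more often across the whole array, and its bearing on the wild-type step was not tested. For Mal the P15 means were 7.67 (number 1) and 9.67 (number 2) on the log2 scale in heterozygotes and 8.50 and 6.92 in wild type. For Mog they were 7.46 and 8.52 in heterozygotes and 7.91 and 6.79 in wild type. Among the number 1 pools the heterozygous P15 mean was above the wild-type one in 1 of the 15 top rising genes (median difference -0.42). Among the number 2 pools it was above in 14 of 15 (median difference 0.92). The genes were picked for a large heterozygous rise, which by itself tilts both comparisons toward heterozygotes. Whether litter, exact age at death or processing goes with the number was not tested.

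**Figure D3:**
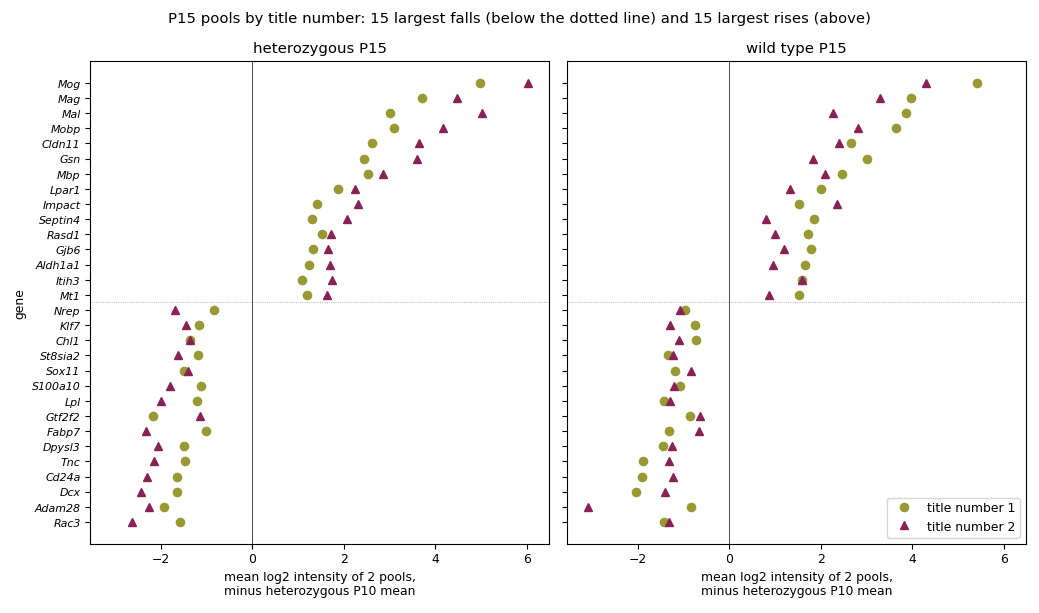
Mean log2 intensity of the 2 P15 pools of each title number, minus the heterozygous P10 mean, in heterozygotes (left) and wild type (right), for the 15 top rising and the 15 top falling genes. In heterozygotes number 2 lies further from 0 for nearly all rising genes, and in wild type number 1 does.

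Both numbers gave a step in the same direction for 1576 of the 1577 called probe sets, which being called over both largely fixes. The 2 within-number changes, which share no array, correlated across all 7453 probe sets at r = 0.69. For Mal the change was 3.38 within number 1 and 4.66 within number 2, for Mbp 2.53 and 2.86, for Dcx -1.59 and -2.48 and for Fabp7 -0.97 and -2.37. The median of the myelin list was 2.68 and 3.60, that of the growth cone list -0.46 and -0.65. Over all called probe sets the median size was 0.46 within number 1 and 0.61 within number 2. With 2 pools an age, limma called 220 probe sets within number 1 and 883 within number 2. The difference between the genotypes was called in 1 probe set within number 1 and in 25 within number 2, compared with none over both. Wild-type P10 has a single array of number 1, so the count within number 1 rests on an arm of 1 pool, which is assumed to vary like the others.

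Later heterozygous pools were set against the same P10 and P15 means, so all these comparisons share their arrays. For the 15 rising genes the mean at P28 was still above the P10 mean in all 15, as it was for the single pool at P32, and in 10 of 15 it was above the P15 mean too (median of P28 minus P15 0.37). All 7 later pools carry title number 1, and against the P15 pools of number 1 alone the P28 mean was above in 14 of 15 (median 0.65). Mog had mean log2 intensities of 2.48 at P10, 7.99 at P15, 8.57 at P18, 8.66 at P20, 8.58 at P28 and 8.70 at P32. Mbp had 9.05, 11.75, 11.87, 12.13, 11.77 and 11.89 at the same ages. One of the 2 P18 pools stood apart in its RNA integrity controls, and the P18 values of that pool and of the other were 8.55 and 8.59 for Mog, 11.81 and 11.94 for Mbp and 7.71 and 7.25 for Dcx. The 15 falling genes stayed below their P10 mean in all 15 cases at P20, P28 and P32, and in 14 at P18. Dcx had 9.43, 7.40, 7.48, 6.91, 6.49 and 6.62 and was lowest at P28. Over all called probe sets, 94.3% of the 754 that rose and 92.5% of the 823 that fell were still on the P15 side of the P10 mean at P28. The synaptic vesicle list, set to 0 at the P10 mean, had mean log2 levels of 0.18 to 0.40 in the P15 pools, of 0.08 at P28 and of 0.05 at P32. The later groups hold 2 pools, or 1 at P32, and these values are descriptions with no test.

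**Figure D4:**
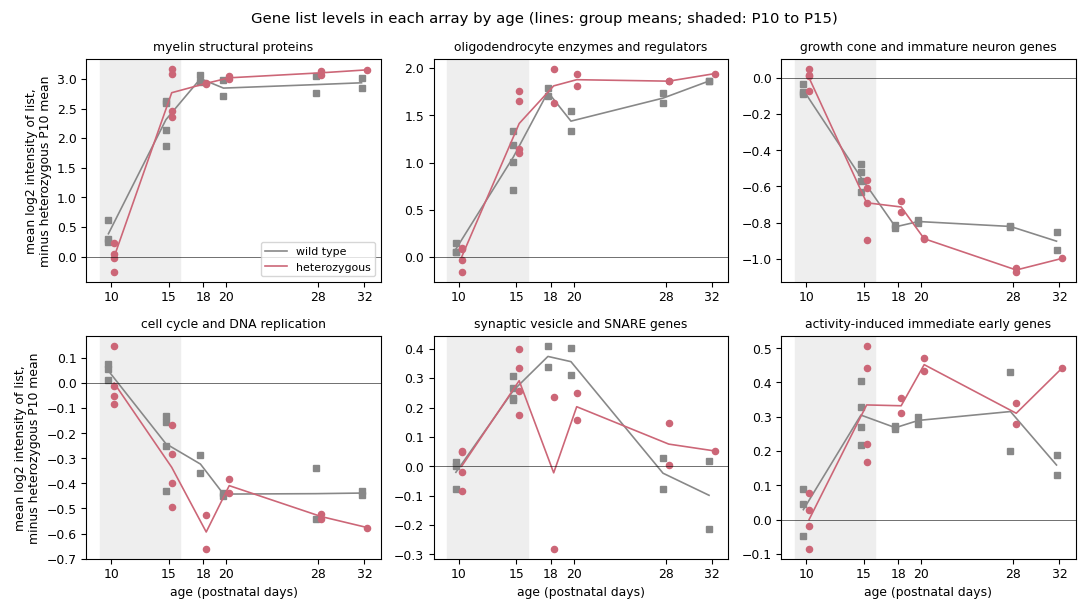
Mean log2 intensity of 6 gene lists in each array, minus the heterozygous P10 mean, by age in heterozygotes (circles) and wild type (squares), with lines through group means and the step from P10 to P15 shaded. Myelin genes reach 2.35 to 3.17 in the heterozygous P15 pools and stay near 3 afterwards, and growth cone genes reach -0.89 to -0.56 and go lower by P28.

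The array's controls for RNA integrity shifted between the heterozygous P10 and P15 pools, with ranges that overlapped. The log2 ratio of the 3′ to the 5′ Gapdh control probe set ran from -0.10 to 0.05 at P10 and from -0.22 to -0.08 at P15. That of beta-actin ran from 0.18 to 0.36 and from 0.30 to 0.50, so the 2 controls moved in opposite directions. In wild type the Gapdh ratio ran from -0.15 to 0.06 and from -0.26 to -0.12, and that of beta-actin from 0.26 to 0.40 and from 0.26 to 0.36. In the fit, 1 heterozygous P18 pool stood far from the rest, with ratios of 0.48 and 1.14 where the other 29 arrays reached at most 0.17 and 0.56. Without both P18 pools 1867 probe sets were called in the heterozygous step and 629 in wild type, against 1577 and 429. When the fit held the Gapdh ratio too, 1650 were called in heterozygotes, but 8 named genes lost their call (Camk2a, Cdh5, Grik1, Neurod6, Psmd12, Sdc4, Sncb and Vip, adjusted p from 0.054 to 0.095), and the change of Sncb was 0.44 in place of 0.68. Leaving out 1 of the 8 pools at a time left between 1123 and 1430 calls, the fewest without the fourth P15 pool. Second probe sets of Gal, Man1a, Ndufa3 and Psmb1 changed in the direction of the first and did not pass. In 8 named genes that were not called, Cd82, Col1a2, Csnk1a1, Csnk1d, Efnb3, Gfap, H2-K1 and Hcn2, a further probe set went against the first and did not pass either.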

How the data were processed

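Each of the 30 arrays (Affymetrix MG-U74Av2) measured hippocampal total RNA pooled from 2 male pups. The deposited values are linear intensities, 1 per probe set and array, and the sources used here do not give their scaling or software. The trimmed mean of each array was near 150.1. Arrays were grouped by the genotype and age in the labels. Values below 1 (1.68% of those of the 8 heterozygous P10 and P15 arrays) were set to 1, log2 was taken, and the 40% of probe sets with the lowest mean over all arrays were left out, which kept 7453 of 12422. One linear model with a mean for each genotype and age was fitted with limma 3.58.1 in R 4.3.3 (eBayes with an intensity trend, Benjamini-Hochberg adjustment over all tested probe sets, calls at an adjusted p below 0.05). The model was tested on simulated data. The contrasts were the step in heterozygotes, the step in wild type and their difference.

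Probe sets were named by the platform annotation with symbols updated through RefSeq: 10833 carry 1 symbol, 396 several and 1193 none. A gene on a list was read by its probe set with the highest mean. Named were the 15 genes with the largest called rise and the 15 with the largest called fall whose pools did not overlap and whose brighter age had a mean log2 of at least 7, the 5 with the smallest p for the difference, and from each of 33 lists up to 4 called members with the largest change and up to 3 uncalled members with the highest mean, along with Nf1, defining cell type markers and other probe sets of a named gene that go against it. The members and lists were chosen with earlier results of these data known. Alternatives covered an added constant of 32, quantile normalization, other filters, fewer arrays, no trend, array weights, a Gapdh covariate, the title number as a block and leaving out each replicate. The number of arrays limits the precision.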

Additional observations from a re-analysis of the deposited data

Results flagged for a closer look

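In 21 of 492 groups of 4 pools (4.27%), 1 pool stood apart from the other 3 by Dixon's ratio, the gap to the nearest pool over the group's range on the log2 scale, at the 95% level, a share that chance alone puts at about 1 in 20 groups. No pool had more than 5 of the 21. At P15, Egr1 was highest in the fourth pool (ratio 0.933, 652 against a median of 351 in the others). Sncb was lowest in the third (0.863, 443 against 1049), and Psmd12 was highest in the first (0.834). In the fourth P15 pool Rps19 (0.889) and Kif22 (0.876) were lowest, and in the second P15 pool S100b (0.832) and Sdha (0.855) were lowest and Npy (0.872) was highest.

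At P10 the fourth pool was lowest for Pmp22 (0.903), Laptm5 (0.872), Cdh5 (0.871) and Gabrb1 (0.844) and highest for Neurod1 (0.91). The first P10 pool was highest for Gja1 (0.935) and lowest for Hba-ps3 (0.915), C1qc (0.882) and Nfix (0.844). The second was lowest for Rplp0 (0.922), Csf1r (0.882) and Rps24 (0.853), and the third was highest for Ptprs (0.84).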

How the results depend on the processing

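The count of 1577 called probe sets in the heterozygous step stayed within 1.5 times under every alternative that used both title numbers, from 1123 without the fourth P15 pool to 1867 without the P18 arrays, with 1607 with 32 added to each intensity, 1618 after quantile normalization (820 higher and 798 lower), 1518 with no filter, 1349 with the lowest 60% left out, 1625 with the compared groups alone, 1537 with no intensity trend, 1650 with a Gapdh covariate and 1857 with array weights. It was 220 (126 higher and 94 lower) within title number 1 and 883 (459 higher and 424 lower) within title number 2, 2 alternatives added after the data were seen, which use fewer arrays. The wild-type count of 429 became 724 with array weights, 132 within number 1, where its P10 arm is a single array assumed to vary like the others, and 144 within number 2, and ran from 228 to 378 with 1 pool left out. The difference between the genotypes, called in 0 probe sets, was called in 1 with no filter, in 1 with the Gapdh covariate, in 1 within number 1 and in 25 within number 2, and in 0 to 2 with 1 pool left out (2 without a wild-type P10 pool of number 2). With the title number as a replicate block the counts were 1575 in heterozygotes, 444 in wild type and 1 for the difference. The samples share only that number, whose meaning is not given, so the block is no pairing by design. Of the 143 named genes that were called, 111 were called under every alternative in which they were fitted other than those 2, and 32 lost the call under at least 1. With the lowest 60% left out 109 of the 143 were fitted. Leaving out 1 pool cost the most calls among fits of both numbers, from 9 of the 143 without the first P15 pool to 25 without the fourth. Calls were lost by 9 with the compared groups alone, 9 with no filter, 8 with the Gapdh covariate, 5 after quantile normalization and 4 with no intensity trend. The replicate block, array weights and 32 added to each intensity cost 1 each, while 94 lost it within number 1 and 38 within number 2. No named gene changed its direction under these alternatives. Of 66 recomputed list medians 4 moved by more than the spread between pools: with the probe set of smallest p the astrocyte median was 0.33, that of cholesterol synthesis -0.22 and that of growth cone genes -0.66, and after quantile normalization that of transcription factors was -0.14. The causes were not tested. A dim probe set gives a change that depends on values near the floor, as for Nf1, Mog and Vamp1.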
